A study of Mus musculus with 3 samples.

Results

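The collagen and laminin chains of the lumbar spinal cord were examined by cell type in SOD1G93A mice and their littermates. The members are the 55 genes, of 31040 in the count table, whose symbols name a single chain: 44 collagen genes (Col followed by a type and a chain number) and 11 laminin genes (Lama, Lamb or Lamc followed by a number). The rule uses gene symbols only and no measured value. Single-nucleus RNA sequencing had been done on lumbar cord from 12 mice aged 90 days, and 4 groups of 3 mice each were compared: SOD1G93A females and SOD1G93A males (B6.Cg-Tg(SOD1*G93A)1Gur/J), which carry many copies of a human SOD1 transgene mutated as in familial ALS, and female and male C57BL/6J littermates without it (WT). The transgene is carried in the germ line and is not restricted to a cell type. All mice had been perfused with saline before the cord was frozen, and only nuclear RNA was measured. Each of 3 10x batches, called pools A, B and C, held 1 mouse of every sex and genotype, so that every SOD1G93A mouse had a WT mouse of its sex in its pool (6 pairs).

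Collagens are secreted proteins of 3 chains wound into a triple helix, and the chain types differ in what they build. Fibrillar collagens such as types I, III and V form the fibres of connective tissue, collagen IV forms the sheet of basement membranes, FACIT collagens bind to the surface of fibrils, and transmembrane collagens stay in the plasma membrane of the cell that makes them. Laminins are cross-shaped trimers of an alpha, a beta and a gamma chain, and the alpha chain sets which cell receptors they bind. In the spinal cord, basement membranes surround the vessels, where endothelial cells, mural cells and the end feet of astrocytes meet, and cover the surface of the cord under the meninges. Fibrillar collagen is known mainly from the meninges and from perivascular fibroblasts.

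The deposited table held 14662 nuclei with 206486779 unique molecular identifiers (UMIs, tags that mark single captured RNA molecules), of which 176858 fell on the 55 members, or 856.5 CPM (counts per 1000000 UMIs). Mice had between 6411715 and 36668441 UMIs. Nuclei carry the cell type given by the authors, and the depth of each type set what could be tested. The class of endothelial cells had 501 nuclei, that of astrocytes 1555 and that of Schwann and meningeal cells 1031, with a median of 6963, 5338 and 1584 UMIs per nucleus. Fibroblasts had 46 nuclei in all, between 1 and 11 in each of 10 mice, and none from the WT female of pool B or the SOD1G93A male of pool A.

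The labels were checked against marker genes, and those of 3 classes need qualification. The endothelial class carried the summed endothelial markers (Flt1, Cldn5, Pecam1, Cdh5 and Tek) at 6653 to 8767 CPM over mice and also those of mural cells, the pericytes and smooth muscle of the vessel wall, at 3196 to 4903 CPM, so that it holds both. In the class of Schwann and meningeal cells, Egr2, a regulator of Schwann cell myelination, had 2 UMIs, while the summed markers of neurons reached 2516 to 5695 CPM and those of oligodendrocytes 2310 to 7223 CPM. In the class called microglia, the markers Cx3cr1, Csf1r and Ptprc summed to 38.8 to 122 CPM, against 1867 to 2659 CPM for the neuron markers. The fibroblast class had 70 UMIs of Dcn, 61 of Slc6a13 and 179 of Ptgds, but also 3 of Lum. How far RNA of other cells entered a value in these classes was not tested.

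The 6 chains of collagen IV are encoded as 3 pairs of genes that point away from each other. In the GENCODE vM21 annotation of GRCm38, Col4a1 (minus strand) and Col4a2 (plus strand) start within 22 shared bases on chromosome 8, Col4a4 and Col4a3 start with 71 bases between them on chromosome 1, and Col4a6 and Col4a5 start with 1308 bases between them on chromosome X. The bases at the first start pair (chr8:11312801-11312830, plus strand, the 22 shared bases in capitals) and between the second (chr1:82586850-82586920, plus strand) are shown. The levels of the 2 genes of each pair were correlated across the cell types, within the limits given with those values. The third sequence is that before the RefSeq start of Lama2 (chr10:27616943-27617192, minus strand), the only member that passed the limma test for a genotype difference in astrocytes. The sequences are from RefSeq for GRCm38.p6.

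Col4a1-Col4a2: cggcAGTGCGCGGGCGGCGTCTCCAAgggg

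Col4a4-Col4a3: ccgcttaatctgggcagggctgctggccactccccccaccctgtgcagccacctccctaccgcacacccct

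Lama2: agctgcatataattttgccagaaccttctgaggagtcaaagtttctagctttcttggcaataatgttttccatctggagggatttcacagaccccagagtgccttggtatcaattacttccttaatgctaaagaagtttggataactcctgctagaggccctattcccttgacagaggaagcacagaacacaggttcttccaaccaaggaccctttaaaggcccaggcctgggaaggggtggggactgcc

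The Lama2 stretch lies inside the Lama2 gene of GENCODE (chromosome 10, 26980036 to 27619758, minus strand), which starts further upstream than RefSeq does, and overlaps no exon. Neither GGGCGG nor CCAAT was found in it on either strand, which says only that these letters are not in this window. Of 44 RefSeq promoter windows of 300 bases that belong to 40 of the members, 26 (59.1%) held GGGCGG on either strand and 14 (31.8%) held CCAAT, against 35.7% and 37.4% of all 32851 windows.

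Levels are given as the mean CPM over mice, on the total UMIs of a cell type in a mouse, and a gene is compared between cell types, not with other genes. The types were defined from the same nuclei, so these levels are a description without a test. Fibroblasts had the highest summed level of the 55 members, 8264 ± 7647 CPM (SD, n = 10 mice), and endothelial cells the next, 1949 ± 268 CPM (n = 12). Ependymal cells had 1226 CPM and astrocytes 1189 ± 92.4 CPM, and the class of Schwann and meningeal cells had the lowest level of the 10 types, 521 ± 146 CPM (n = 12). Of the 55 members, 34 had their highest mean in fibroblasts, 6 in ependymal cells, 4 in endothelial cells and 3 in motor neurons, and the other 6 types had 1 or 2 each. For every member the range over mice in its highest type overlapped the range in the next, so no order of neighbouring types is firm. Single mice weighed heavily in fibroblasts: without the mouse of a member's highest value, the mean fell by over 1.5 times for 26 of the 34 members, and 11 of the 34 were no longer highest there.

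**Figure D1:**
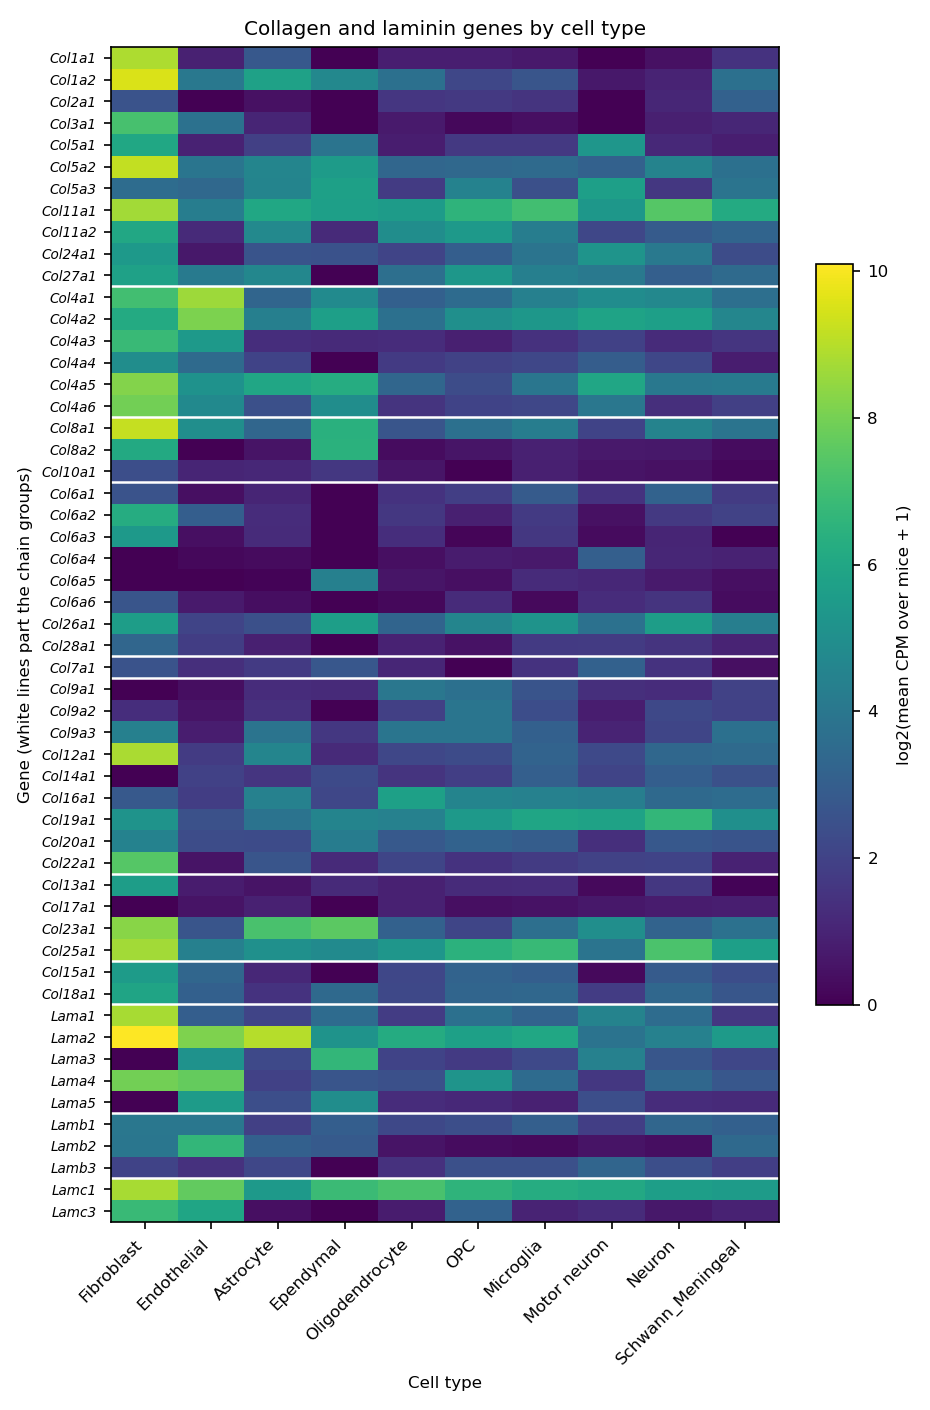
Mean level of 54 of the 55 members (vertical, grouped by chain class between white lines) in the 10 cell types (horizontal), as log2 of the mean CPM over mice plus 1. The bright column is that of fibroblasts, where 34 of the 55 members had their highest mean. Col4a1, Col4a2, Lamb2 and Lama5 had their highest mean in the endothelial column, where other members such as Lama2 are bright as well.

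Of the 11 fibrillar chains, 9 were highest in fibroblasts, but through few nuclei. The other 2 were Col2a1, at 7.70 ± 19.7 CPM in the class of Schwann and meningeal cells, and Col5a3, at 52.5 ± 60.2 CPM in ependymal cells. Col2a1 had 5 UMIs in that class, of which 1 in the WT male of pool B counted as 69.1 CPM. Without that mouse its highest type changed. Col1a1 and Col1a2, the chains of collagen I, averaged 460 ± 1173 and 726 ± 1985 CPM in fibroblasts (SD, n = 10), 77.2 and 13.3 times their level in astrocytes, the next type. These means rested on 1 mouse: the SOD1G93A female of pool A, with 6 fibroblast nuclei, held 76 of the 91 fibroblast UMIs of Col1a1 and 128 of the 154 of Col1a2. Without that mouse the means were 90.7 ± 118 and 98.7 ± 83.8 CPM (n = 9), 14 and 1.85 times the next type, and 6 fibrillar chains in place of 9 were highest in fibroblasts. The same mouse held all 13 fibroblast UMIs of Col11a2, 8 of the 9 of Col24a1 and 70 of the 89 of Col11a1. Col3a1, the chain of collagen III, had 28 UMIs in 7 of the 10 mice and a mean of 141 ± 246 CPM. Among the FACIT chains, Col22a1 was at 173 ± 350 CPM in fibroblasts, 32.3 times the astrocyte level (12.4 times without the same mouse, which held 23 of the 40 UMIs), and Col12a1 at 447 ± 767 CPM, 19.3 times (12.8 times without the SOD1G93A male of pool C).

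Of the collagen VI chains, which form beaded filaments, Col6a2 (74.9 ± 103 CPM) and Col6a3 (42.5 ± 110 CPM) were highest in fibroblasts on 10 and 7 UMIs, while Col6a1 was at most 7.92 ± 2.34 CPM, in neurons. Some FACIT chains were highest outside fibroblasts. Col19a1, a FACIT chain, was at 101 ± 10.96 CPM in neurons, 1.68 times the microglial class. Col16a1, another FACIT chain, was at 53.0 ± 9.69 CPM in oligodendrocytes, 2.37 times oligodendrocyte precursors (OPCs). Of the collagen IX chains, Col9a1 was at 14.95 ± 6.75 CPM in oligodendrocytes, 1.22 times OPCs. Col9a3 was between 13.9 and 14.2 CPM in oligodendrocytes, OPCs and astrocytes, with 1 UMI in fibroblasts. In the Schwann and meningeal class it was at 12.4 ± 18.4 CPM, where 1 UMI in the WT male of pool B counted as 69.1 CPM. On UMIs pooled over mice it was at 6.97 CPM in that class. Col14a1, another FACIT chain, was at 7.27 ± 5.00 CPM in the microglial class and 6.99 CPM in neurons. Col26a1 was at 48.0 ± 6.52 CPM in neurons, 35.5 ± 9.98 in the microglial class, 19.1 ± 18.5 in the Schwann and meningeal class and 48.9 ± 59.95 in ependymal cells. Col7a1, the chain of anchoring fibrils, was at 7.88 ± 9.88 CPM in motor neurons, where Col5a3 was at 50.4 ± 45.4 CPM. Col27a1 was at 39.3 ± 24.9 CPM in OPCs, and the short-chain Col8a2 at 86.1 ± 75.2 CPM in ependymal cells. In neurons the fibrillar Col11a1 (170 ± 9.95 CPM) and the transmembrane Col25a1 (152 ± 14.0 CPM) had their highest mean after fibroblasts, where 89 and 30 UMIs gave 413 ± 1083 and 414 ± 738 CPM. Without the SOD1G93A female of pool A, Col11a1 in fibroblasts was at 71.3 ± 97.1 CPM, below neurons, and without the WT male of pool B, Col25a1 was at 214 ± 404 CPM. The transmembrane Col23a1 was at 146 ± 42.5 CPM in astrocytes, 0.469 times the fibroblast level. In ependymal cells Col23a1 was at 185 ± 183 CPM, on 41 UMIs.

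The sheet-forming chains Col4a1 and Col4a2 were highest in endothelial cells. Col4a1 was at 392 ± 95.7 CPM and Col4a2 at 278 ± 69.0 CPM (SD, n = 12), 2.97 and 3.87 times the fibroblast level, on 1860 and 1321 UMIs. The other 4 chains had their highest means in fibroblasts, with Col4a3 at 113 ± 161, Col4a4 at 30.3 ± 51.7, Col4a5 at 301 ± 329 and Col4a6 at 248 ± 379 CPM. Endothelial cells came next for Col4a3 (43.1 ± 22.9 CPM) and Col4a4 (10.3 ± 5.95 CPM), and ependymal cells for Col4a5 (75.8 ± 66.5 CPM) and Col4a6 (29.6 ± 58.4 CPM). Across the 10 cell types the genes of each head-to-head pair had correlated levels, with a Pearson r of 0.98 for Col4a1 and Col4a2 (Spearman 0.988), 0.976 for Col4a3 and Col4a4 (0.721) and 0.975 for Col4a5 and Col4a6 (0.806). The 10 points share mice and libraries, so these values are a description. Col1a1 and Col1a2, which lie on different chromosomes, gave 0.998 and 0.657. Apart from Col4a1 and Col4a2, the genes of these pairs were highest in fibroblasts, and that point can carry a Pearson r. It rested on 15 and 11 UMIs for Col4a3 and Col4a4, and on 73 and 64 for Col4a5 and Col4a6. In astrocytes Col4a5 was at 61.4 CPM and Col4a6 at 4.46 CPM. The correlations without fibroblasts were not computed.

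The laminin alpha chains differed in the cell type that led. Lama2, the alpha chain of the laminins of muscle and of astrocyte and meningeal basement membranes, was at 1094 ± 812 CPM in fibroblasts, 498 ± 108 CPM in astrocytes and 286 ± 97.3 CPM in endothelial cells. Lama1, a chain of the meningeal surface, was at 432 ± 808 CPM in fibroblasts, 20 times the motor neuron level, on 106 UMIs from 4 mice, and at 197 ± 343 CPM (8.54 times) without the SOD1G93A female of pool A. Lama4, an endothelial chain, was at 209 ± 54.7 CPM in endothelial cells and 249.2 ± 125 CPM in fibroblasts. Lama5, the other main chain of vessels, was highest in endothelial cells at 45.9 ± 10.3 CPM, and Lama3 was highest in ependymal cells at 102 ± 58.3 CPM on 23 UMIs, with 34.8 ± 11.2 CPM in endothelial cells. Lama3 and Lama5 had 0 UMIs in fibroblasts, which allows a level of up to 14.0 CPM.

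Among the beta and gamma chains, Lamb2, a beta chain of vascular laminins, had the highest ratio of its endothelial level to that of any other type, at 103 ± 24.7 CPM or 6.98 times the fibroblast level, on 471 of the 629 UMIs of the gene. Lamb1 was at 15.1 ± 26.1 CPM in fibroblasts and 14.97 ± 10.96 CPM in endothelial cells, and Lamb3 was highest in motor neurons at 8.70 ± 10.5 CPM. Lamc1, the gamma chain of most laminins, was at 439 ± 323 CPM in fibroblasts, 203 ± 31.3 in endothelial cells and 146 ± 40.7 in oligodendrocytes. Lamc3 was at 114 ± 193 CPM in fibroblasts and 60.0 ± 25.2 in endothelial cells.

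To ask whether the chains differed between the genotypes, UMIs were summed per mouse and cell type and tested with limma voom across all genes of the type, with a term for each group of sex and genotype and one for the pool. Effects are log2 fold changes of SOD1G93A minus WT averaged over the sexes, and genes with a false-discovery rate (FDR, Benjamini-Hochberg over all genes tested in the type) under 0.1 are called. A filter on low counts left 49 of the 55 members tested in at least 1 type, and 6 in none (Col1a1, Col3a1, Col6a5, Col8a2, Col10a1 and Col17a1). In the comparisons that follow, CPM are on the UMIs of the tested genes with library sizes scaled by TMMwsp, and so differ from the levels above.

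In astrocytes, Lama2 was lower in SOD1G93A mice, and no other of the 18 tested members was called. The background in astrocytes was 2.29% of 9347 genes called (0.909% called lower), so a single call among 18 members is not a result about the members as a group. In WT mice of pools A, B and C, Lama2 stood at 569, 532 and 716 CPM in females and at 636, 642 and 628 CPM in males. In SOD1G93A mice it stood at 283, 412 and 424 CPM in females and at 394, 541 and 411 CPM in males. Every SOD1G93A mouse lay below the WT mouse of its sex and pool (6 of 6 pairs), and the groups overlapped through the SOD1G93A male of pool B alone, which exceeded the female WT mouse of that pool. The means were 620.5 ± 63.8 and 411 ± 82.1 CPM (SD, n = 6 each), on 3322 and 1809 UMIs, and the log2 fold change was −0.60 (SE 0.119, FDR = 0.009998 with limma). Within pools A, B and C the difference of log2 values was −0.85, −0.31 and −0.68. The effect in males did not differ detectably from that in females (interaction 0.17, SE 0.239, FDR = 1).

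**Figure D2:**
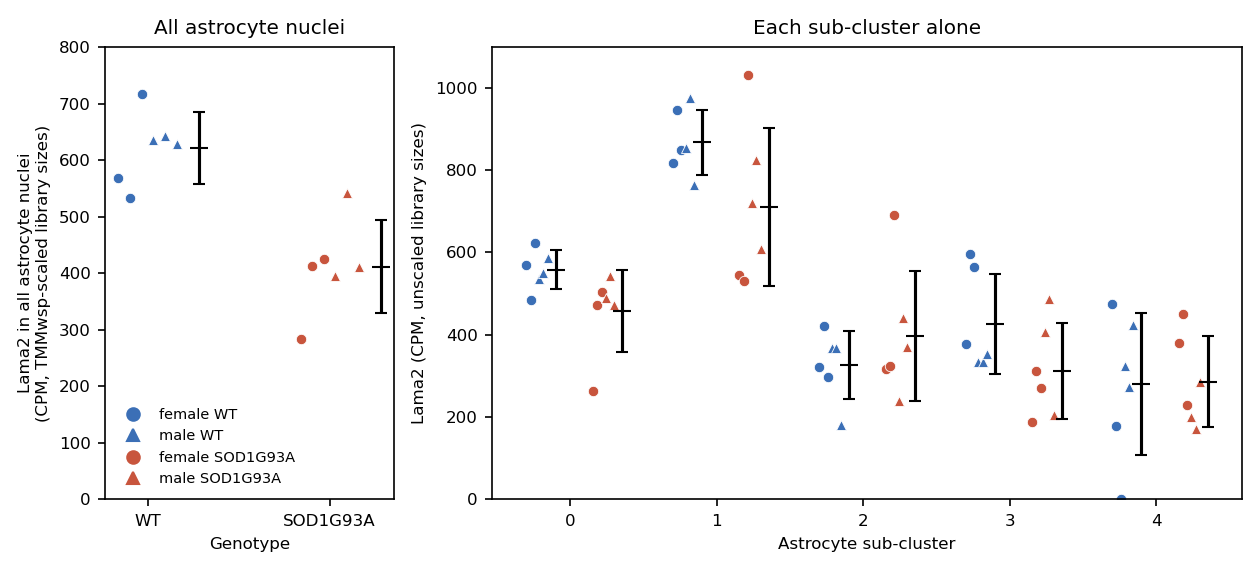
Lama2 in each mouse, as scaled CPM over all astrocyte nuclei by genotype (left) and as unscaled CPM within each deposited sub-cluster (right), with circles for females, triangles for males, blue for WT and red for SOD1G93A, and bars for the mean ± SD of 6 mice. Over all astrocytes 1 SOD1G93A mouse reached the WT range, whereas within each sub-cluster the genotypes overlapped.

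The astrocytes of the 2 genotypes differed in their make-up, and Lama2 differed between the deposited sub-clusters. Sub-cluster 1, with the highest Lama2 level, held 36.9 ± 6.3% of astrocyte nuclei in WT mice (26.9 to 42.6%) and 14.7 ± 6% in SOD1G93A mice (4.81 to 21.6%, n = 6 each), while sub-clusters 3 and 4 held 9.35% and 7.53% in WT mice and 18.9% and 17.6% in SOD1G93A mice. On unscaled CPM, Lama2 in sub-cluster 1 was at 868 ± 79.4 in WT and 710.5 ± 193 in SOD1G93A mice, and in sub-cluster 0 at 558 ± 48.0 and 457 ± 99.0. The groups overlapped in every sub-cluster. Sub-cluster 3 had 426 in WT and 312 in SOD1G93A mice, sub-cluster 2 326 and 397, and sub-cluster 4 279 and 286. Fitted within each sub-cluster, the log2 fold changes in sub-clusters 0 to 4 were −0.27, −0.32, 0.07, −0.47 and 0.21, and 0 of the 5 passed the test with limma (FDR of 0.5485 to 0.9828). These fits called few genes of any kind, from 0% to 0.0939% of the 2331 to 5325 tested, against 2.29% over all astrocytes, and the unadjusted p of Lama2 was 0.0579, 0.034, 0.7625, 0.02758 and 0.5316. Weighted to the same mix of sub-clusters in every mouse, Lama2 was at 544 ± 22.2 CPM in WT and 470 ± 91.8 CPM in SOD1G93A mice, lower in 5 of 6 pairs, with a log2 ratio of the means of −0.21. As measured, on the same unscaled CPM, it was at 585 ± 39.4 and 410 ± 76.3 CPM, lower in 6 of 6 pairs, with a log2 ratio of −0.51. The sub-clusters were made from the same nuclei. The astrocyte markers (Aqp4, Aldh1l1, Gfap, Slc1a3 and Gja1) moved with genotype as well, summing to 1694 to 2225 CPM in WT and 2665 to 3654 CPM in SOD1G93A mice, and those of oligodendrocytes summed to 1005 to 1522 and 1405 to 2764 CPM. Their part in the Lama2 difference was not tested.

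The other laminin and collagen chains of astrocytes did not pass the test. Col5a2, a chain of the fibrillar collagen V, came nearest in order of p: its mean was 18.1 ± 3.82 CPM in WT (11.5 to 21.9) and 28.9 ± 7.28 CPM in SOD1G93A mice (22.5 to 40.2, n = 6 each). The groups did not overlap, and the log2 fold change was 0.67 (SE 0.236, FDR = 0.192 with limma). Col27a1, another fibrillar chain, had 19.7 ± 5.05 and 30.1 ± 9.17 CPM (0.57, FDR = 0.256), and Col1a2 64.1 ± 13.5 and 48.4 ± 14.1 CPM (−0.37, FDR = 0.340). Lamb2 was at 5.52 ± 4.79 and 9.91 ± 5.27 CPM (0.81, FDR = 0.410), on 40 and 41 UMIs, and Col23a1 at 136 and 164 CPM (0.24, FDR = 0.489). Col4a5 was at 58.4 and 67.8 CPM (0.22, FDR = 0.625). Over the 18 tested members 11 effects were above 0 and 7 below, with a median of 0.05 against 0.02 over all genes. Summed over all chains on unscaled CPM, the laminins of astrocytes were at 651 ± 43.1 CPM in WT (612.5 to 722) and 487 ± 78.4 CPM in SOD1G93A mice (353 to 590.2), without overlap, and the collagens at 580 ± 40.8 and 661 ± 85.8 CPM, with overlap (n = 6 each). Lama2 makes up most of the laminin sum.

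**Figure D3:**
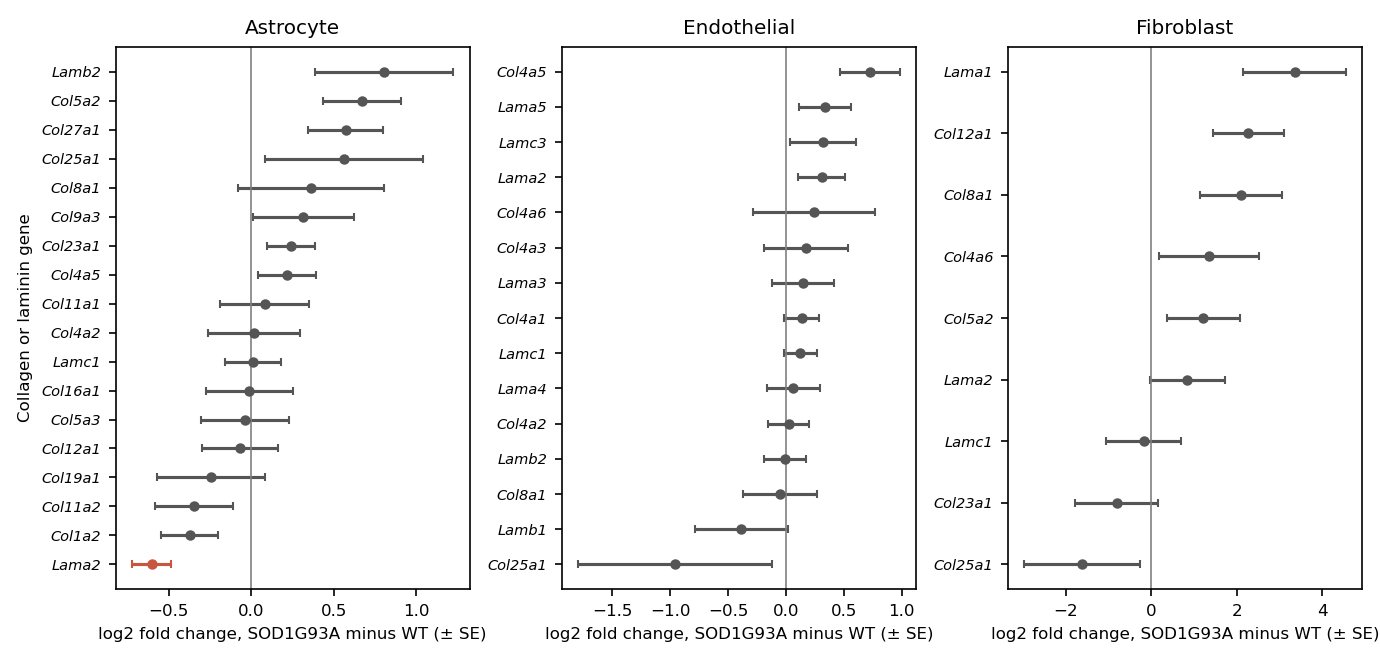
Genotype effect on each tested member (vertical) in astrocytes, endothelial cells and fibroblasts, as the log2 fold change of SOD1G93A minus WT (horizontal, a different scale in each panel) with bars of ± 1 SE. The red point is Lama2 in astrocytes, at −0.60 the only call in these 3 types, and the bars in fibroblasts are the widest.

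In endothelial cells, 0 of 15 tested members were called, and the background was 0.0131% of 7637 genes. The edgeR and DESeq2 fits also called 0, and 1 member, Col4a5, had an unadjusted p under 0.05, as had 4.37% of all genes. Col4a5, an X-linked chain of the alpha3-alpha4-alpha5 network of collagen IV, was at 27.5 ± 11.4 CPM in WT and 44.4 ± 15.6 CPM in SOD1G93A mice, higher in 5 of 6 pairs (log2 fold change 0.73, SE 0.257, FDR = 0.980 with limma). Col4a1 was at 389 ± 65.9 and 436 ± 127 CPM (0.14) and Col4a2 at 289 ± 68.9 and 295 ± 80.3 CPM (0.02), so that the abundant sheet-forming chains differed by less than the spread between mice. The same held for Lama4 (217 ± 56.3 and 224 ± 65.5 CPM, 0.06), Lamb2 (109 ± 27.6 and 108 ± 26.4 CPM, −0.01) and Lamc1 (205 ± 36.9 and 222 ± 31.8 CPM, 0.13). Lama5 had 43.3 ± 9.76 and 53.4 ± 10.6 CPM (0.34), Lamc3 60.8 ± 34.4 and 66.1 ± 21.5 CPM (0.32) and Lamb1 18.0 ± 12.1 and 13.6 ± 11.6 CPM (−0.39). Col25a1, the neuronal transmembrane chain, gave −0.96 through the WT female of pool C, which had 89.4 CPM, and 0.63 without that mouse. The median effect over the 15 members was 0.14 against −0.01 over all genes.

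Lama2 in endothelial cells was at 276 ± 115 CPM in WT and 327 ± 98.4 CPM in SOD1G93A mice (log2 fold change 0.31, FDR = 0.980). The difference of the genotype effects between astrocytes and endothelial cells of the same mice averaged −0.93 on the log2 scale (SD 0.343, −1.24 to −0.36) and was below 0 in 6 of 6 pairs. An exact two-sided sign-flip test over the 6 pairs gave p = 0.03125, the smallest the 64 flips allow, and this pair of cell types was chosen after its values were seen. In oligodendrocytes Lama2 was at 91.2 ± 19.9 and 56.0 ± 15.1 CPM, lower in 6 of 6 pairs (−0.66, FDR = 0.887 with limma). The values in the microglial class (74.4 and 55.7 CPM, −0.40), in OPCs (83.4 and 35.5 CPM, −0.82) and in neurons (20.4 and 21.2 CPM, 0.06) did not pass the test either.

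**Figure D4:**
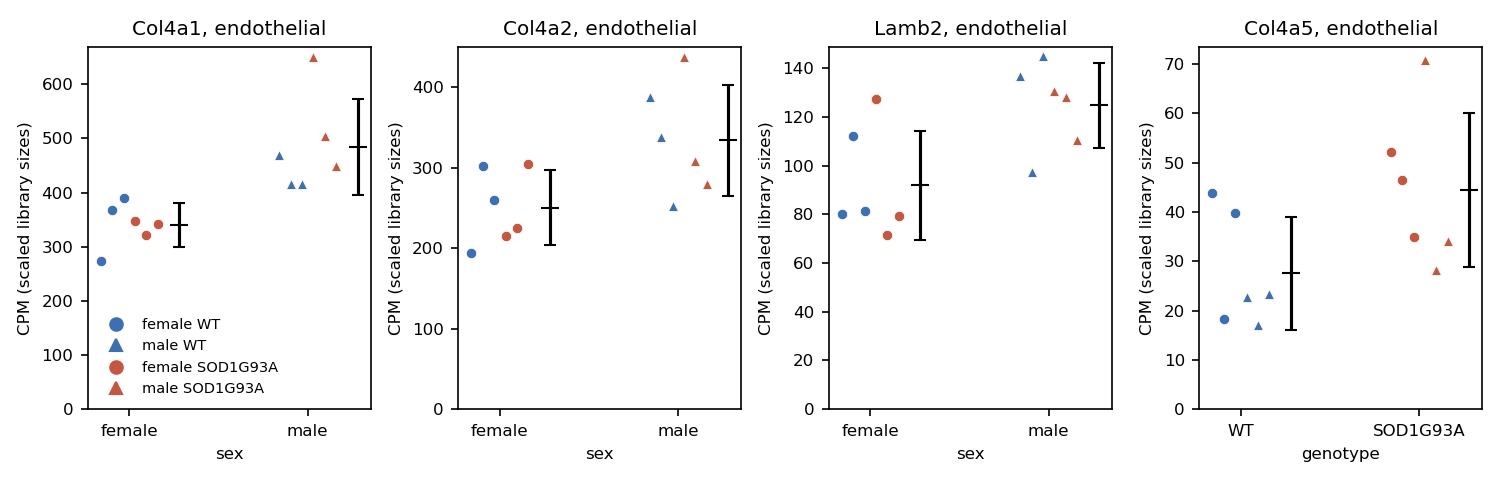
Col4a1, Col4a2 and Lamb2 by sex and Col4a5 by genotype in endothelial cells, as scaled CPM of each mouse (circles for females, triangles for males, blue for WT, red for SOD1G93A) with bars for the mean ± SD of 6 mice. Males lay above females without overlap for Col4a1, from 416 to 650.1 against 274 to 389.5 CPM, and none of the 4 comparisons passed the test.

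In fibroblasts, 0 of 9 tested members were called, as were 0 of 561 genes, a background of 0%. The edgeR and DESeq2 fits called 0 as well, and 3 members had an unadjusted p under 0.05, as did 5.7% of all genes. Lama1 had the smallest p among them, with 14 UMIs in WT mice, all in the male mouse of pool C, and 92 in SOD1G93A mice, of which 51 and 27 were in the females of pools A and B and 14 in the male of pool B. The other 2 SOD1G93A mice had 0, so the groups overlapped, and the log2 fold change was 3.35 (SE 1.199, FDR = 0.690 with limma). It ran from 2.23 without a filter on low counts to 10.33 with DESeq2, and from 1.97 to 3.92 without 1 mouse, with no FDR under 0.168. Col8a1, a short-chain network collagen, had 25 and 72 UMIs (2.10), Col12a1 18 and 20 (2.27) and Lama2 100 and 144 (0.84). Of the 18 WT UMIs of Col12a1, 16 were in the male mouse of pool A. Col5a2 gave 1.22, Col4a6 1.35 and Col25a1 −1.62. Fibroblast UMIs of all genes ranged from 3167 to 66231 per mouse, and the untested Col1a1 had 2 UMIs in WT and 89 in SOD1G93A mice. The median over the 9 tested members was 1.22 against −0.03 over all genes. Members such as Lama1 and Col8a1 had most of their UMIs in SOD1G93A mice and could pass the filter through them. This median is therefore no evidence of a difference, and 46 nuclei set the limit of the comparison.

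In the class of Schwann and meningeal cells, 4 members passed the filter, and 0 of them were called against a background of 0.036% of 5562 genes. The edgeR and DESeq2 fits called 0, and no member had an unadjusted p under 0.05, against 4.66% of all genes. The fibrillar Col11a1 had 97.3 ± 58.9 CPM in WT and 63.8 ± 13.4 CPM in SOD1G93A mice (log2 fold change −0.55, FDR = 0.999 with limma), Lama2 58.7 ± 40.5 and 38.8 ± 16.3 CPM (−0.40), Col25a1 55.8 ± 51.4 and 62.5 ± 24.7 CPM (0.15) and Lamc1 56.7 ± 45.1 and 41.6 ± 16.6 CPM (−0.08). The sign for Lamc1 changed with the test used. In the WT male of pool B, with 13 nuclei of the class, 2 UMIs counted as 124 CPM for Lama2 and likewise for Lamc1. These were the highest WT values of both genes. The class had 348 nuclei in WT and 683 in SOD1G93A mice. The class held clusters of 497, 451 and 82 nuclei and 1 nucleus of another, and the members summed to 544, 411 and 673 CPM in the 3 larger clusters.

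Among the other types, a genotype effect on a member was called in motor neurons only. There 1 of 11 tested members, Col11a1, was higher in SOD1G93A mice, against a background of 3.07% of 5118 genes (1.43% called higher). It stood at 6.53, 5.75 and 0 CPM in the WT females of pools A, B and C and at 49.7, 10.6 and 32.0 CPM in the WT males, and at 82.0, 94.9 and 0 CPM in the SOD1G93A females and 37.0, 96.7 and 92.4 CPM in the males. It was higher in 4 of 6 pairs with overlapping groups, and the log2 fold change was 2.73 (SE 0.738, FDR = 0.0925 with limma). Mice had 1 to 11 motor neuron nuclei, and without those under 3 nuclei the estimate was 2.84 with an FDR of 0.220. The call was kept in 4 of the 12 fits that left out 1 mouse, those that omitted a WT or SOD1G93A male of pool A or B, and the FDR over the 12 ran from 0.00639 to 0.209. In the microglial class 0 of 19 members were called (background 0.0759%), in neurons 0 of 47 (0.0255%), in oligodendrocytes 0 of 19 (0.0475%) and in OPCs 0 of 9 (0.0411%). With limma 3, 4, 2 and 1 of them had an unadjusted p under 0.05, as had 7.94%, 4.16%, 4.77% and 6.39% of all genes, and edgeR and DESeq2 called 0 in these types. No member passed the filter in ependymal cells.

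Sex was compared in the same fits, as female minus male averaged over the genotypes, and 3 calls were made, all higher in females. In the microglial class, 2 of 19 members were called against a background of 0.434% of 9218 genes (0.38% called higher in females). Col12a1 was at 12.9 ± 4.46 CPM in females (7.70 to 17.3) and 4.15 ± 2.56 CPM in males (1.52 to 7.004, n = 6 each), without overlap (1.40, SE 0.320, FDR = 0.0768 with limma), on 78 and 53 UMIs. Col23a1 was at 19.3 ± 10.1 and 5.11 ± 3.92 CPM, higher in females in 5 of 6 pairs (2.16, SE 0.400, FDR = 0.0182). Leaving out 1 mouse at a time kept Col23a1 in 9 of 12 fits, with an FDR of 0.158, 0.137 and 0.121 on omission of the WT male of pool A, the SOD1G93A female of pool B or the SOD1G93A male of pool B. It kept Col12a1 in 1 of 12, that without the WT male of pool B (FDR up to 0.370 in the others). The call of Col12a1 was also lost with edgeR (FDR = 0.280), with DESeq2 (0.252) and without a filter on low counts (0.115). In neurons, 1 of 47 members was called against 0.0701% of 15681 genes (0.0446% higher in females): Col5a2 was at 25.4 ± 5.09 CPM in females and 18.0 ± 3.08 CPM in males, higher in 6 of 6 pairs with overlapping groups (0.50, SE 0.0875, FDR = 0.073), and 4 of 12 fits without 1 mouse kept the call, those without any of the 3 WT females or the SOD1G93A female of pool B (FDR up to 0.491 in the others). In the other types 0 members were called by sex with limma, with a background of 0.139% in astrocytes, 0.108% in the Schwann and meningeal class, 0.178% in fibroblasts, 0.117% in motor neurons, 0.057% in oligodendrocytes and 0.185% in OPCs. Unadjusted p was under 0.05 for 2, 1, 2, 1, 4 and 2 members in that order, and for 5.54%, 6.31%, 7.49%, 5.53%, 4.81% and 10.7% of all genes. The summed microglia markers of the microglial class were at 50.9 to 122 CPM in females and 38.8 to 111 CPM in males. The class had 223 nuclei, 5 to 41 per mouse, with a median of 46930 UMIs per nucleus against 12860 in neurons. The part of RNA from other cells in its sex calls was not tested.

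**Figure D5:**
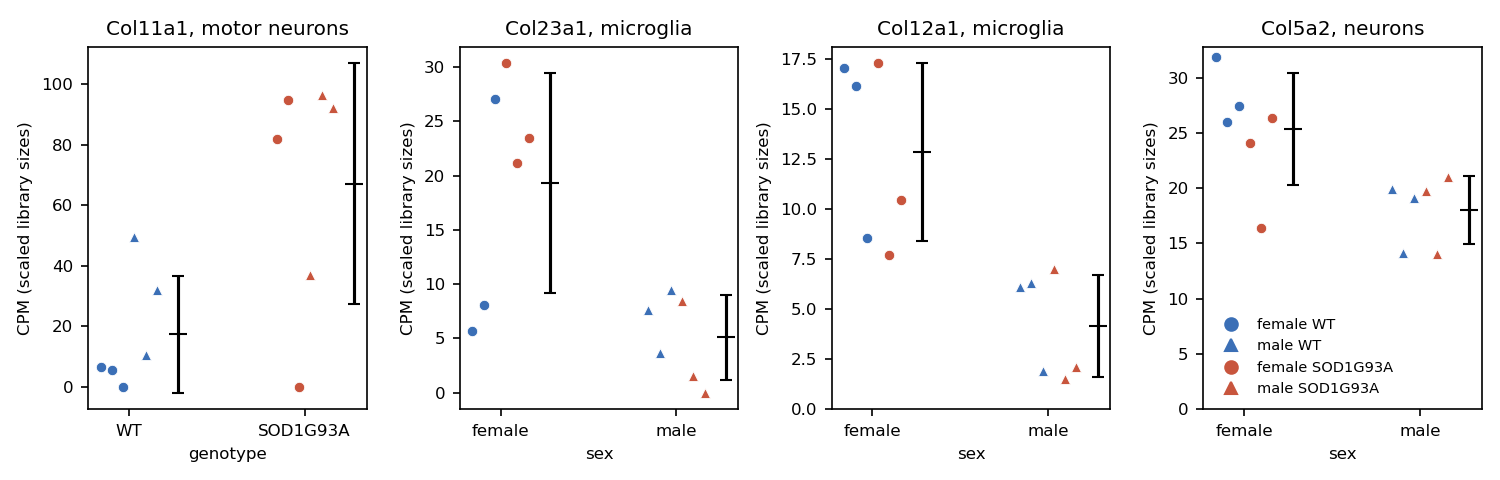
The members called outside astrocytes, as scaled CPM of each mouse (circles for females, triangles for males, blue for WT, red for SOD1G93A) with bars for the mean ± SD of 6 mice: Col11a1 in motor neurons by genotype, and Col23a1 and Col12a1 in the microglial class and Col5a2 in neurons by sex. The groups overlap in each panel but that of Col12a1.

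In endothelial cells 0 of 15 members were called by sex with limma (background 0.223%) and 3 had an unadjusted p under 0.05, as had 5.84% of all genes, although Col4a1 did not overlap between the sexes. It was at 340 ± 40.2 CPM in females (274 to 389.5) and 484 ± 87.9 CPM in males (416 to 650.1, n = 6 each), higher in males in 6 of 6 pairs (−0.50, SE 0.151, FDR = 0.477 with limma). Its neighbour Col4a2 was at 250.1 ± 46.7 and 334 ± 69.3 CPM (FDR = 0.835), and Lamb2 at 92.0 ± 22.4 and 125 ± 17.6 CPM (FDR = 0.797). The mural markers of this class summed to 3196 to 4893 CPM in females and 3699 to 4903 CPM in males. The genotype effect did not differ between the sexes for any member in any type by limma, edgeR or DESeq2 (0 called). The background was 0.0107% in astrocytes and 0.0586% in motor neurons, where 2 members each had an unadjusted p under 0.05. In the microglial class 3 had one, in neurons, oligodendrocytes and OPCs 2 each, in the endothelial and the Schwann and meningeal class 1 each, and in fibroblasts 0. The share of all genes with such a p lay between 1.96% in fibroblasts and 5% in motor neurons.

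Genes that act with the chains were counted from 4 lists: receptors, partners in the basement membrane, enzymes and chaperones of collagen processing, and enzymes of matrix turnover with their inhibitors. In astrocytes 50 of them were tested and 3 were called, all higher in SOD1G93A mice, where 1.38% of all genes were called higher. Of 15 receptors, Cd44, a receptor for hyaluronan that also binds collagen, was called (35.0 ± 17.2 CPM in WT and 68.6 ± 19.3 CPM in SOD1G93A mice, higher in 6 of 6 pairs, log2 fold change 0.99, SE 0.180, FDR = 0.00537 with limma). Of 8 basement membrane partners, Pxdn, the peroxidase that cross-links collagen IV, was at 25.4 ± 4.62 and 44.6 ± 10.9 CPM (6 of 6 pairs, 0.75, SE 0.202, FDR = 0.070), and Sparc, a collagen-binding glycoprotein, at 421 ± 56.9 and 550.5 ± 81.9 CPM (5 of 6 pairs, 0.39, SE 0.112, FDR = 0.0962). Cd44 was called in 12 of 12 fits without 1 mouse, Pxdn in 4 (FDR up to 0.163) and Sparc in 3 (FDR up to 0.345). With all mice, Sparc was called in 3 of 8 other settings (FDR up to 0.166) and Pxdn in 6 of 7, all but that without a filter (0.146). The 22 processing and 5 turnover genes had 0 calls with limma and 3 each with an unadjusted p under 0.05, as had 13.6% of all genes in astrocytes. With limma 0 of 35 were called in endothelial cells, 0 of 18 in the class of Schwann and meningeal cells and 0 of 2 in fibroblasts, with 3, 1 and 0 at an unadjusted p under 0.05 (4.37%, 4.66% and 5.7% of all genes). In motor neurons 1 of 23 was called, the collagen receptor Ddr2, where 1.43% of all genes were called higher. It was at 9.75 ± 14.7 CPM in WT and 37.0 ± 22.0 CPM in SOD1G93A mice on 13 and 50 UMIs, higher in 5 of 6 pairs with overlapping groups (2.34, SE 0.646, FDR = 0.0792 with limma). The SOD1G93A male of pool A held 24 of the 50 UMIs, and without it Ddr2 did not pass the filter. The call was kept in 5 of the other 11 fits without 1 mouse (FDR up to 0.205). In the microglial class 0 of 42 partners were called with limma, in neurons 0 of 72, in oligodendrocytes 0 of 51 and in OPCs 0 of 22, with 3, 6, 4 and 0 at an unadjusted p under 0.05 (7.94%, 4.16%, 4.77% and 6.39% of all genes).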

How the data were processed

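Lumbar spinal cord nuclei of 12 mice were measured by single-nucleus RNA sequencing in 3 10x batches (pools). The authors deposited raw counts, UMIs per gene and nucleus, made with Cell Ranger 3.1 on a pre-mRNA reference of mm10, with STAR 2.5.1b, and assigned nuclei to mice by hashtag in Seurat 4.0.3. According to the paper, a given hashtag antibody marked the same combination of sex and genotype throughout. Effects of hashtag and of sex or genotype therefore cannot be told apart. Nuclei under 200 genes or over 10% mitochondrial UMIs were dropped, as were all mitochondrial genes. The column of mitochondrial percent values was deposited too and reached 9.99. Cell types and sub-clusters are those deposited, doublets were removed by the authors only where hashtags were mixed, and 15 cell barcodes occurred in more than 1 pool. The deposited table of integrated values was not used, since sums need counts.

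UMIs were summed per mouse and cell type, filtered with filterByExpr (minimum count 10), scaled with TMMwsp and fitted with voom and robust eBayes in limma 3.58.1 (R 4.3.3), with terms for group and pool and adjustment over all genes of a type. Alternatives used edgeR 4.0.16, DESeq2 1.42.0, other filters and scalings, and fits without each mouse. The pools are batches that mice of all 4 groups share, which is why the pool was a block. As a check, deviations from the group means had a median r of 0.0298 between astrocytes of mice in the same pool and −0.0143 in different pools, 0.0649 and −0.0458 in endothelial cells, and 0.0546 and −0.0544 in the Schwann and meningeal class. The script was tested on simulated counts. Genes named are members called in any comparison, the 6 members of smallest p in each of the 4 types, the chains of collagens I, III and IV, Col6a1 to Col6a3, the laminins apart from a chain not reported here, for each type the 3 members (of 20 UMIs or more there) highest over the next type, and called partners (Ddr2, called outside these 4 types, was added after its values were seen). Members and lists were chosen with earlier results of these data known. P-values cover the spread between mice, and counting error limits fibroblasts most.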

Additional observations from a re-analysis of the deposited data

Results flagged for a closer look

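In 60 groups of mice, 11 had a value far from the rest by Dixon's ratio. Chance gives such a value in about 1 of 20 groups where values are normally distributed. Values from few UMIs, as in fibroblasts, need not be, so the number of flags is not evidence of an excess over that rate. In astrocytes, Cd44 stood at 69.1 CPM in the WT female of pool C against 22.9 to 33.2 CPM in the other WT mice, and Pxdn at 34.6 CPM in the same mouse against 21.9 to 25.0 CPM. In endothelial cells, Col25a1 stood at 89.4 CPM in the WT female of pool C against 5.08 to 28.1 CPM, and Lama5 at 62.0 CPM in the WT female of pool A against 33.9 to 43.1 CPM. In motor neurons, Ddr2 stood at 39.2 CPM in the WT female of pool A against 0 to 9.15 CPM.

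The other 6 were in fibroblasts, where a mouse had 1 to 11 nuclei. Col12a1 stood at 4110 CPM in the WT male of pool A against 0 to 129 CPM in the other WT mice, and Col5a2 at 5395 CPM in the same mouse against 0 to 1097 CPM. Col5a2 stood at 5824 CPM in the SOD1G93A female of pool A against 372.5 to 443 CPM. Col25a1 stood at 4847 CPM in the WT male of pool B against 81.1 to 514 CPM, and at 1771 CPM in the SOD1G93A male of pool C against 0 to 351 CPM. Lama1 stood at 903 CPM in the WT male of pool C and at 0 in the other WT mice.

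The genotype effect on Lama2 was lower in astrocytes than in endothelial cells of the same mice by a mean difference of −0.93 on the log2 scale over 6 pairs. This pair of cell types was chosen after its values were seen, so the exact sign-flip test given with the endothelial values is no independent evidence of a difference.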

How the results depend on the processing

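The number of members called by genotype in astrocytes was 1 in each setting but the fit without a filter on low counts, which gave 2, and was 1 without the replicate block (no pool term). In motor neurons it was 1, against 2 with DESeq2, 5 without a filter, 0 at a minimum count of 30, 2 without robust eBayes, 0 without the replicate block, 0 without mice under 3 nuclei, and 0 to 2 without 1 mouse. The sex calls numbered 3, against 1 without a filter, 1 without the replicate block, and 0 to 4 without 1 mouse. They were 0 without the WT male of pool A or the SOD1G93A male of pool B, and 1 without the SOD1G93A female of pool A or the SOD1G93A male of pool C. Without the replicate block the FDR was 0.488 for Col12a1, 0.176 for Col23a1, 0.107 for Col11a1 in motor neurons and 1 for Col5a2, and that of Ddr2 in motor neurons was 0.107 (0.203 with edgeR, 0.213 without mice under 3 nuclei, and not tested at a minimum count of 30). Partner calls in astrocytes, endothelial cells, fibroblasts and the Schwann and meningeal class numbered 3, against 1 with DESeq2 (which gave Cd44 and Pxdn no adjusted p), 1 without a filter, 4 at a minimum count of 30, 2 or 3 in the other settings, and 1 to 5 without 1 mouse. The other 9 counts of calls were 0 in every setting, pairing by pool included. For Lama2 in astrocytes all 12 fits without 1 mouse made the call (−0.69 to −0.54), and the fits within sub-clusters 2 and 4, added after seeing the data, gave 0.0686 and 0.208. The sign of Lamc1 in the Schwann and meningeal class turned to 0.16 with edgeR, 0.14 with DESeq2, 0.0612 without a filter and 0.12 without the replicate block, and lay between −0.35 and 0.41 without 1 mouse. Without 1 mouse the sign also turned for Col25a1 in endothelial cells (−1.88 to 0.63), in the Schwann and meningeal class (−0.14 to 0.37) and in fibroblasts (−4.01 to 0.26), and for Col4a6 in fibroblasts (−0.21 to 2.55). Over the settings with all mice, the estimates in fibroblasts ran from 2.23 to 10.33 for Lama1, 1.59 to 3.66 for Col12a1, 2.09 to 3.61 for Col8a1, 0.37 to 1.47 for Col5a2, 1.01 to 2.47 for Col4a6 and −1.62 to −0.31 for Col25a1, and none was called. The causes were not tested. Members highest in fibroblasts numbered 28 to 35 and in endothelial cells 4 to 6. Fibroblasts without mice under 3 nuclei could not be fitted, since too few mice remain.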
